A study of Homo sapiens with 4 samples.

Results

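The regions described here are 410 YAP peaks of H69 cells that stood far from every TEAD1 peak. They come from the list of 10118 peaks obtained with the YAP antibody that the design text of the series calls Avruch, out of 61551 peaks in the 3 deposited lists. A peak was taken when it lay on chromosomes 1 to 22, was narrower than 1000 bp and had a deposited score of at least 80. Its centre also had to lie more than 10 kb from the centre of every TEAD1 peak, and the peak more than 50 kb from any peak of 1000 bp or wider in any list. These regions are called distant YAP peaks below. Because the rule used the Avruch score, the width and the places of TEAD1 peaks, those values are given as descriptions, without a test.

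H69 is a human cell line, used in this field as an immortalised line of bile duct epithelium, and the labels give only its name. The series holds 4 chromatin immunoprecipitation sequencing (ChIP-seq) libraries of H69 cells, 1 per antibody: the Avruch YAP antibody (labelled only YAP), the Santa Cruz YAP antibody, a TEAD1 antibody (labelled only TEAD) and IgG as a control. The labels give no treatment, genotype or time that differs between them, so every contrast below is between antibodies or between classes of peaks within 1 library. The peak lists of the YAP and TEAD1 antibodies were used, and the IgG library was not analysed here.

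YAP is the transcriptional coactivator at the end of the Hippo pathway. It has no DNA-binding domain of its own and reaches DNA through partner proteins, of which the TEAD family (TEAD1 to TEAD4) is the main one. When the upstream kinases LATS1 and LATS2 phosphorylate YAP, it is held in the cytoplasm or degraded, and when they are inactive it enters the nucleus and acts mainly at enhancers. Peaks of YAP at a distance from TEAD1 therefore pose the question of how much of the YAP signal lies outside the reach of this partner. The other TEAD proteins were not analysed here.

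Distance from TEAD1 was common among Avruch peaks of all scores. After the conditions on chromosome, width and wide neighbours, 7989 Avruch peaks were left, and 4218 of them (52.8%, Wilson 95% interval 51.7 to 53.9) had no TEAD1 centre within 10 kb. The share more than 10 kb from TEAD1 was 53.8% among the 7083 peaks with scores under 80 and 48.2% among the 666 peaks from 80 to 100. It was 37.9% from 100 to 150 (75 of 198 peaks) and 33.3% at 150 or more (14 of 42). Stronger Avruch peaks thus stood near TEAD1 more often than weak ones, and even among the strongest a part stood away from it. All intervals of shares here are Wilson intervals that cover counting error only, since each antibody has 1 library and peaks within a library are not replicates.

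Scores are the authors' own values with no stated unit, and they rank peaks only within a list. The 410 distant YAP peaks had scores from 80.01 to 471.6 with a median of 87.4, and 140 of them (34.1%) lay between 80 and 85. Only 14 peaks reached 150. At the edge of the rule, the lowest scores inside were 80.01 on chromosome 17 and 80.06 on chromosomes 12 and 4, and the highest scores just outside were 79.98 on chromosome 8 and 79.95 on chromosome 9. The distances at the other edge were as close. The nearest peaks inside lay 10021 bp and 10062 bp from a TEAD1 centre, on chromosomes 7 and 4, and those just outside lay at 9984 bp and 9918 bp, on chromosomes 8 and 1. Peaks on both sides of these limits were therefore alike in the values that separate them.

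The distance to the nearest TEAD1 centre had a median of 34274 bp and reached 471966 bp. Between 10 and 20 kb lay 121 of the distant YAP peaks (29.5%), between 20 and 50 kb 137 (33.4%), between 50 and 100 kb 91 (22.2%), between 100 and 200 kb 45 (11.0%) and farther away 16 (3.90%). Around a distant YAP peak there was a median of 3 TEAD1 peaks within 100 kb and 32 within 1 Mb. The Avruch peaks with scores under 80 and more than 10 kb from TEAD1 had medians of 3 and 33, so the stronger distant peaks lay in surroundings about as rich in TEAD1 as the weaker ones. Score followed distance little within the distant class (Spearman rho -0.09 across 410 peaks of 1 library, given as a description). The TEAD1 peak nearest to a distant YAP peak had a median score of 66.2 on the TEAD1 list's scale, close to the median of 67.1 over all 48962 TEAD1 peaks.

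**Figure D1:**
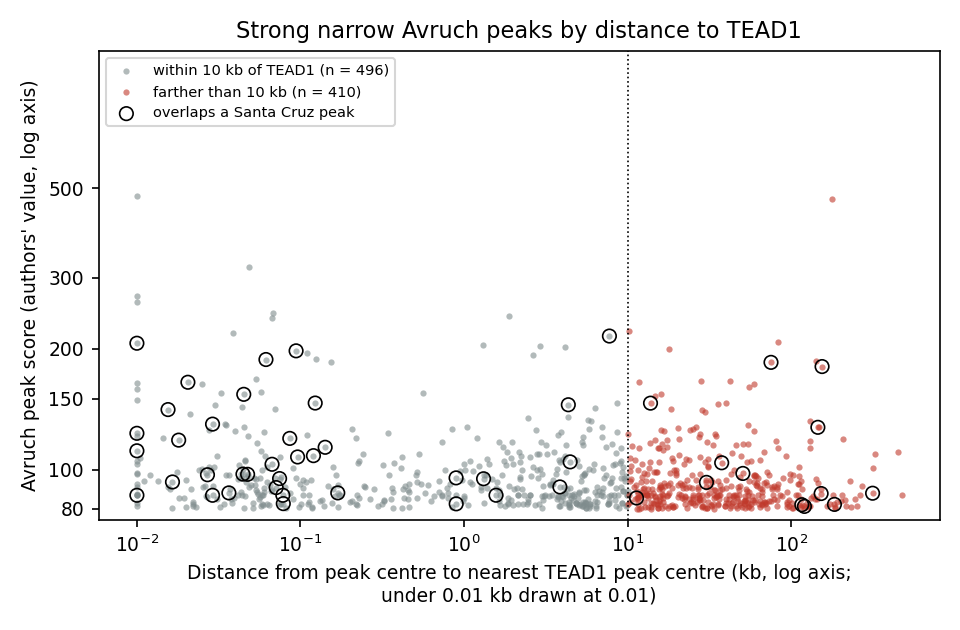
Score of each Avruch peak of at least 80 (log axis, authors' value) against the distance from its centre to the nearest TEAD1 centre (kb, log axis). Grey points are the peaks within 10 kb and red points the 410 distant peaks, the dotted line marks 10 kb, and black rings mark overlap with a Santa Cruz peak. Most distant peaks lie under a score of 100, and 1 stands alone at 471.6.

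The strongest distant YAP peak stood by itself. It lay on chromosome 1 (hg19, 7174813 to 7175675), was 863 bp wide and had a score of 471.6, against 221.7 for the next. The nearest Avruch peak was 263 kb away, the nearest TEAD1 centre 178 kb and the nearest Santa Cruz centre 868 kb. It was thus a single, broad site of high score in 1 library, with nothing from the other 2 antibodies around it. The second peak lay on chromosome 3 (123828808 to 123829183, 376 bp, score 221.7), only 10.2 kb from a TEAD1 centre and so just past the limit. The third lay on chromosome 11 (131212071 to 131212500, 430 bp, score 207.2), 82.6 kb from TEAD1. None of these 3 overlapped a Santa Cruz peak. Which genes lie at these and the following positions was not analysed here, because no annotation of build hg19 was used.

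A further peak on chromosome 11 (102100441 to 102100678, 238 bp, score 200) had 3 Avruch peaks of similar width around it, a neighbourhood singled out after its values were seen. The others were 225 bp wide with a score of 155.3 (101981698 to 101981922), 250 bp wide with 192.9 (101984877 to 101985126) and 226 bp wide with 82.8 (102118404 to 102118629). These 3 lay 0.557 kb, 2.63 kb and 0.00850 kb from a TEAD1 centre, so the distant peak, at 18.0 kb, was the only one of these outside the limit. The 3 others lay 119, 116 and 18.0 kb from it. Its nearest Santa Cruz centre was 3320 kb away. Whether these peaks lie in the gene of the precipitated protein itself, which bears on how their scores are read, was not analysed here.

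The remaining leading peaks, the 15 with the highest scores, were of 2 kinds. In all, 9 of the 15 stood alone and 6 had another distant YAP peak within 10 kb. The lone ones included a peak on chromosome 3 (303700 to 304202, 503 bp, score 184.8) and one on chromosome 10 (66131618 to 66131898, 281 bp, score 165.7). Further lone peaks lay on chromosome 12 (129502639 to 129502925, 287 bp, score 152.2) and chromosome 1 (171851268 to 171851532, 265 bp, score 146.5). One lone peak, on chromosome 5 (68548314 to 68548381), was only 68 bp wide and had a score of 164.8. The grouped ones lay on chromosome 1 (121414916 to 121415573, score 186.2, and 121426505 to 121427427, score 180.4), chromosome 8 (43092665 to 43093542, score 165.8), chromosome 9 (321071 to 321435, score 163.1) and chromosome 22 (20656277 to 20656979, score 160.6, and 21521885 to 21522427, score 154.4). Of the 15, 3 had no TEAD1 peak within 100 kb, and 2 overlapped a Santa Cruz peak.

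Whether the distant peaks were also found with the other YAP antibody was asked of the Santa Cruz list, whose narrow peaks the rule did not use. Overlap by at least 1 bp was found for 13 of the 410 distant YAP peaks (3.17%, 1.86 to 5.35). The same overlap was found for 8.16% of all Avruch peaks and for 1.35% of the 7989 Avruch peaks left by the conditions on chromosome, width and wide neighbours. Of the Avruch peaks that passed every condition but lay within 10 kb of a TEAD1 centre (496 near peaks), 36 overlapped a Santa Cruz peak (7.26%, 5.29 to 9.88). The distant share was lower by a difference of -4.09 percentage points (Newcombe 95% interval -7.02 to -1.15). The near peaks were also wider, with a median of 195 bp against 169 bp, and had a median score of 91.2 against 87.4. With a Santa Cruz centre within 1 kb counted in place of overlap, which does not depend on width, the shares were 3.41% and 9.48% (difference -6.06 points, -9.27 to -2.87). For peaks more than 50 kb from TEAD1, of which 9 of 152 overlapped (5.92%, 3.15 to 10.9), the difference was smaller and its interval included 0 (-1.34 points, -5.16 to 3.99). At scores of 100 or more, with 89 distant peaks left, the difference was larger in size but its wider interval also included 0 (-6.96 points, -14.0 to 1.18).

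Within the distant class, strength went with recurrence. Of the 3808 Avruch peaks equally far from TEAD1 with scores under 80, 11 overlapped a Santa Cruz peak (0.289%, 0.161 to 0.517). The share of the stronger distant peaks was 2.88 percentage points higher (Newcombe interval 1.55 to 5.06). The stronger peaks were also wider, with a median of 169 bp against 146 bp. With a Santa Cruz centre within 1 kb counted in place of overlap, the shares were 3.41% and 0.735% (difference 2.68 points, 1.27 to 4.93). Along the distance to TEAD1, the peaks with scores of at least 80 shared most where they overlapped a TEAD1 peak itself (28 of 208, 13.5%, 9.48 to 18.8). They shared less where they lay within 10 kb without overlap (8 of 288, 2.78%, 1.41 to 5.38) and from 10 to 50 kb (4 of 258, 1.55%, 0.605 to 3.92), and the intervals of these 2 classes overlap each other and that of the peaks beyond 50 kb. The near peaks without TEAD1 overlap were therefore close to the distant ones in this respect. In counts, most of the sharing of near peaks came from those on top of a TEAD1 peak.

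**Figure D2:**
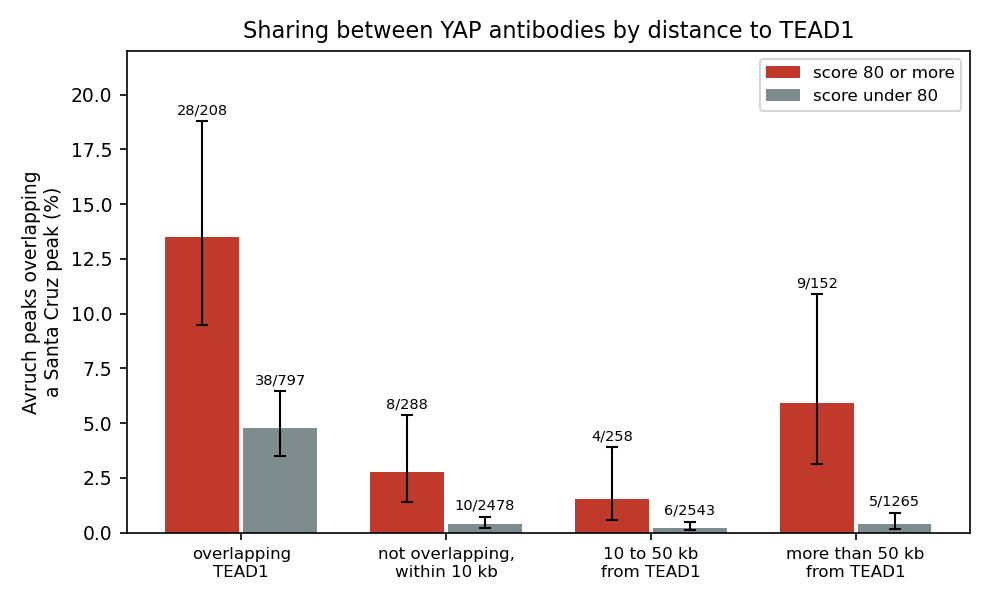
Share of Avruch peaks (%) that overlap a Santa Cruz peak, by place relative to TEAD1 peaks, for scores of at least 80 (red) and under 80 (grey). Bars show the share, error bars the Wilson 95% interval, and the labels the counts. The share is 13.5% on top of TEAD1 peaks, 1.55% from 10 to 50 kb and 5.92% beyond 50 kb for the stronger peaks. Of the 9 shared peaks beyond 50 kb, 6 lie near long stretches without peaks.

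The 13 distant YAP peaks found with both antibodies are given by their Avruch score. On chromosome 3, the peak at 303700 to 304202 (score 184.8) lay wholly within a Santa Cruz peak of 648 bp with a score of 201.2, and the centres were 26 bp apart. It was the strongest of the shared peaks in both lists, and it stood alone, with 1 TEAD1 peak within 100 kb. On chromosome 9, the peak at 69710672 to 69711362 (score 146.3) lay within a Santa Cruz peak of 853 bp (score 101.7, centres 13 bp apart). It had 22 TEAD1 peaks within 100 kb, the nearest at 13.8 kb.

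On chromosome 1, 3 shared peaks lay within 10 kb of each other at 121417926 to 121418321, 121424738 to 121425132 and 121426505 to 121427427, with Avruch scores of 127.4, 87.2 and 180.4 and Santa Cruz scores of 54.8, 96.1 and 59.2. No TEAD1 peak lay within 100 kb of them. They stood 58.5 to 67.3 kb from a stretch of more than 2.5 Mb in which none of the 3 lists has a peak. Whether reads can be placed in such stretches was not analysed here, so they are not read as lacking binding. Shared peaks beside such stretches were also found on chromosome 19 (24614187 to 24614508, score 87.4, 14.3 kb from the stretch), chromosome 11 (55020608 to 55020849, score 82.0, 12.1 kb) and chromosome 9 (66833057 to 66833605, score 81.8, 1363 kb). Thus 6 of the 13 lay within 2 Mb of a peak-free stretch of at least 2.5 Mb.

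The remaining shared peaks lay on 5 chromosomes. On chromosome 13 (97340231 to 97340381) the scores were 104.0 for Avruch and 88.5 for Santa Cruz, with the centres 74 bp apart. On chromosome 5 (2490414 to 2490721) they were 97.9 and 51.8, and on chromosome 12 (20704320 to 20704505) 93.0 and 55.2. On chromosome 14 (79928415 to 79928532, scores 81.0 and 57.0) and chromosome 4 (9357979 to 9358297, scores 85.05 and 51.1) the peaks met only at their ends, over 18 and 19 bp. Scores begin at about 50 in each list, and 5 of the 13 had a Santa Cruz score of 80 or more.

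Leaving out peaks within 2 Mb of the peak-free stretches, 7 of 384 distant YAP peaks were shared (1.82%, 0.886 to 3.71). In these 26 peaks near the stretches the share was 23.1% (6 of 26, 11.0 to 42.1). Leaving out windows of 200 kb with more than 5 Avruch peaks, which held 7 of the 13, the share was 1.64% (0.753 to 3.53). Without both it was 1.43% (5 of 349, 0.613 to 3.31). The same was 0.972% for all 7100 Avruch peaks left under the conditions on place and width (0.769 to 1.23), whose interval lies within that of the distant YAP peaks. Near peaks without these places shared in 24 of 381 cases (6.30%, difference -4.87 points, -7.88 to -2.10), and weaker distant peaks in 4 of 3531 (0.113%, difference 1.32 points, 0.481 to 3.20). Thus 8 of the 13 shared peaks, but not the order of the classes, rested on places dense in Avruch peaks or beside peak-free stretches.

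The overlaps were also expressed as shares of the Santa Cruz list. These are largely the same pairs of peaks as above, so they are no separate check. Under the same conditions on chromosome, width and wide neighbours, 812 Santa Cruz peaks lay more than 10 kb from TEAD1, and 23 of them (2.83%, 1.89 to 4.21) overlapped an Avruch peak of any score. Within 10 kb of TEAD1 it was 83 of 777 (10.7%, 8.70 to 13.1). Only 20 of the 812 had a Santa Cruz score of at least 80, and 5 of those (25%, 11.2 to 46.9) overlapped an Avruch peak, each of them a distant YAP peak. The 13 shared peaks made up 3.17% of the 410 distant YAP peaks, and the 13 Santa Cruz peaks they met were 1.60% of the 812.

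By the distance to the next Avruch peak of any score, distant YAP peaks resembled the weaker Avruch peaks far from TEAD1 (medians 103238 and 103424 bp). They lay more often in windows of 200 kb with more than 5 Avruch peaks, at 10.7% against 4.02% (difference 6.71 points, 3.99 to 10.1). No other Avruch peak of any score lay within 100 kb of 207 of the 410 (50.5%, 45.7 to 55.3), against 50.7% of the weaker distant peaks, 31.9% of the near peaks and 43.7% of all 7989 under the conditions on place and width. Of all 410, 72 (17.6%) had another Avruch peak within 10 kb, against 29.9% of all Avruch peaks and 17.1% of the 7989 under the same conditions on place and width, so the share was near that of the rest. Another distant YAP peak lay within 10 kb of 43 (10.5%, 7.88 to 13.8). The weaker distant peaks had another of their class as close in 9.48% of cases, and the interval of the difference included 0 (1.01 points, -1.78 to 4.47). These classes differ in size, with 410 and 3808 peaks, and the median distance to the next peak of the class was 2108684 bp and 203256 bp. Similar shares within 10 kb are therefore not read as similar grouping. For the near peaks the share with another near peak within 10 kb was 19.8% (difference -9.27 percentage points, -13.8 to -4.60). That class has 1 group of 26 peaks in a crowded window. With windows of more than 5 Avruch peaks left out the shares were 3.83% and 5.15%, a difference whose interval included 0 (-1.33 points, -4.41 to 1.74). Such windows are chosen by their number of Avruch peaks, so leaving them out takes out grouped peaks of both classes. That setting is therefore no check of whether grouping differs. At scores of 100 or more the difference was -0.446 points (-11.2 to 11.2).

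The 43 grouped peaks fell into 14 groups, of which 5 had 2 members, 6 had 3 and 3 had 4 or more. Grouped peaks were stronger and broader than lone ones, with a median score of 113.1 against 86.4 and a median width of 256 bp against 165 bp. A score of at least 100 was reached by 26 of the 43 (60.5%) and by 63 of the 367 lone peaks (17.2%), and by 89 of all 410. Score and width are values of the rule and peaks of a group are not independent, so these are descriptions. Neighbouring centres within a group lay 210 to 8816 bp apart, with a median of 1016 bp, and 14 of the 29 steps were at most 1 kb. Santa Cruz peaks overlapped members of 2 of the 14 groups.

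Chromosome 22 held 5 of the 14 groups and 15 of the 43 grouped peaks, all from 18685571 to 21680580. The group with the most peaks there (21520747 to 21522629) had 4 peaks in 1.88 kb, with scores from 111.9 to 154.4. The group at 20656277 to 20657722 had 3 peaks from 116.0 to 160.6, and the next (20689644 to 20692178) had 3 weaker ones from 91.8 to 100. The group at 21678749 to 21680580 had 3 peaks from 88.9 to 145.8, and that at 18685571 to 18688782 had 2, from 94.2 to 139.3. No Santa Cruz peak lay in any of these 5 groups, where the share of all distant YAP peaks with such an overlap was 3.17%, and the rule itself keeps TEAD1 peaks away. This neighbourhood was singled out after its values were seen.

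The groups of 6 and 5 peaks lay in windows crowded with Avruch peaks of all scores, and the group of 4 on chromosome 22 lay in a window with 5. On chromosome 4, 6 distant YAP peaks (9343544 to 9358297, scores 85.05 to 125.2) lay among 15 Avruch peaks in 14.8 kb. The window of 200 kb around them held 106 Avruch, 8 TEAD1 and 9 Santa Cruz peaks, and 38 of the Avruch peaks belonged to the near class. Distance from a TEAD1 peak here separates peaks of 1 dense field. On chromosome 1, 5 distant YAP peaks (121414916 to 121427427, scores 87.2 to 186.2) lay in a window with 63 Avruch and 13 Santa Cruz peaks and no TEAD1 peak. On chromosome 6, the window from 161000001 to 161200000 held 5 distant peaks (scores 84.5 to 93.5) among 14 Avruch peaks, with 1 TEAD1 and no Santa Cruz peak. In all, 44 of the 410 (10.7%) lay in 21 windows with more than 5 Avruch peaks, against 4.02% of the weaker distant peaks and 21.8% of the near ones.

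**Figure D3:**
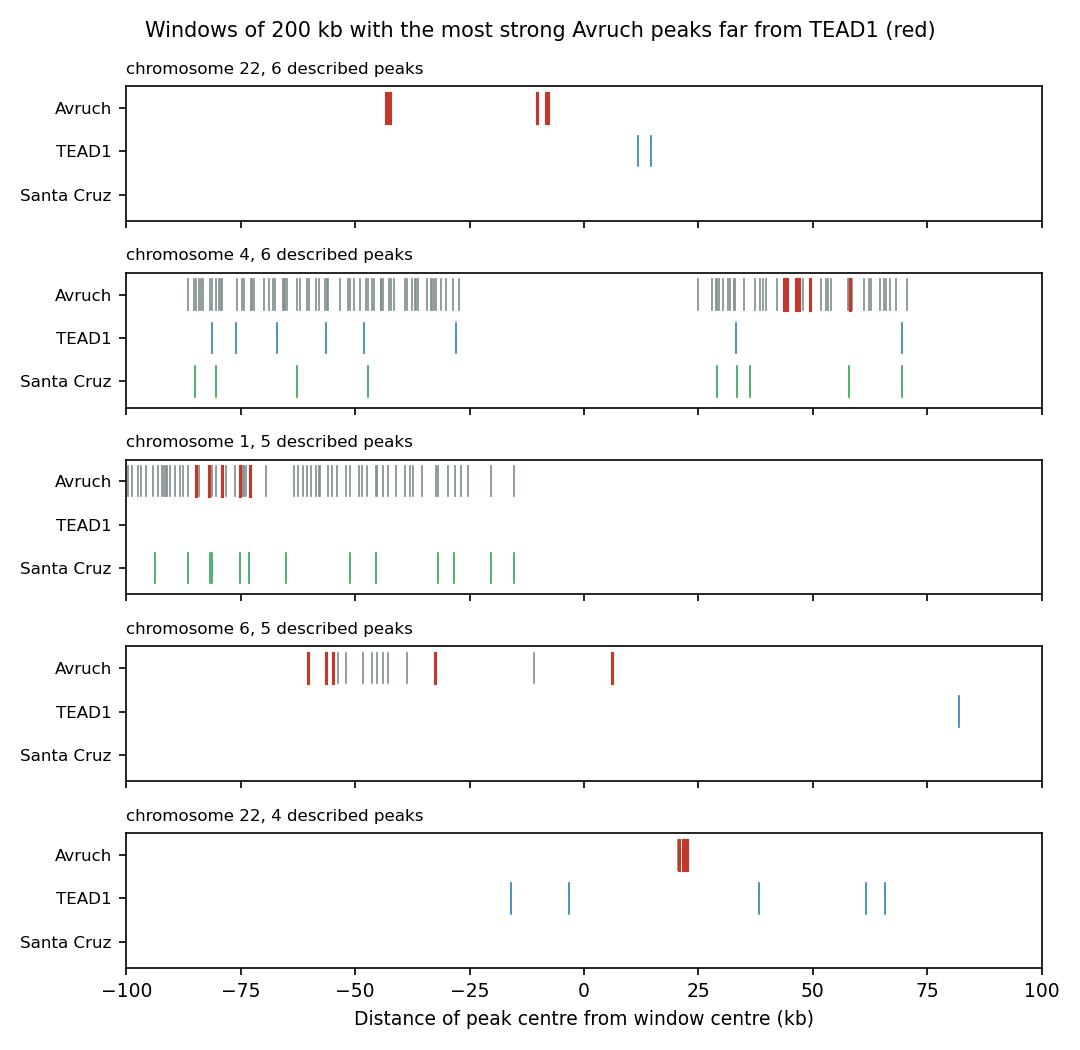
Peaks of the 3 lists in the 5 windows of 200 kb with the most distant YAP peaks, drawn at the distance of their centre from the window's centre (kb). Red ticks are the distant YAP peaks, grey ticks other Avruch peaks, blue TEAD1 and green Santa Cruz. The chromosome 4 and chromosome 1 windows are crowded with Avruch peaks (106 and 63), and both chromosome 22 windows hold few others.

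The other groups were small. On chromosome 1, 3 peaks stood within 0.626 kb (5394172 to 5394797, scores 113.5 to 132.4), 130 kb from the nearest TEAD1 centre. On chromosome 9, 3 peaks stood within 1.55 kb near the start of the chromosome (320146 to 321698, scores 93.4 to 163.1), among 5 Avruch peaks. On chromosome 6, 3 peaks stood within 5.81 kb (161039460 to 161045268, scores 89.5 to 93.5). Pairs lay on chromosome 8 (43092665 to 43095428, 771 and 878 bp wide), chromosome 7 (74909090 to 74910131) and chromosome 1 (148010570 to 148013469 and 155805004 to 155809339). No Santa Cruz peak lay in any of these groups.

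The distant YAP peaks covered a wide range of shapes. Widths ran from 62 to 923 bp with a median of 169 bp, and 346 of the 410 (84.4%) were narrower than 250 bp, the size to which the chromatin was sheared per the labels' protocols. Score rose with width (Spearman rho 0.32 across 410 peaks, and 0.41 across the near ones, as descriptions). At the broad end, 18 peaks of 400 bp or wider had a median score of 142.8, 10 of them lay in groups, and 4 (22.2%) overlapped a Santa Cruz peak. At the narrow end, 29 peaks (7.07%, 4.97 to 9.97) were narrower than 100 bp, against 3.04% of the Avruch peaks under the conditions on place and width. The share was 7.46% among near peaks of at least 80 (37 of 496). Among peaks with scores under 80 it was 2.60% far from TEAD1 (99 of 3808) and 2.38% within 10 kb (78 of 3275). Width and score are values of the rule, so these shares are given as descriptions.

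Scores of the 29 very narrow peaks ran from 80.5 to 164.8, with a median of 89.9. The strongest was the 68 bp peak on chromosome 5 named above. Next came an 83 bp peak in a group on chromosome 22 (20657640 to 20657722, score 129.1), a 68 bp peak on chromosome 3 (85264484 to 85264551, score 124.6) and a 66 bp peak on chromosome 2 (54370859 to 54370924, score 122.9). The smallest width, 62 bp, was found on chromosome 4 (137013663 to 137013724, score 119.3), chromosome 15 (22512150 to 22512211, score 95.8) and chromosome 14 (101864140 to 101864201, score 80.8). Of the 29, 1 lay in a group and none overlapped a Santa Cruz peak (0 of 29, upper Wilson limit 11.7%).

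**Figure D4:**
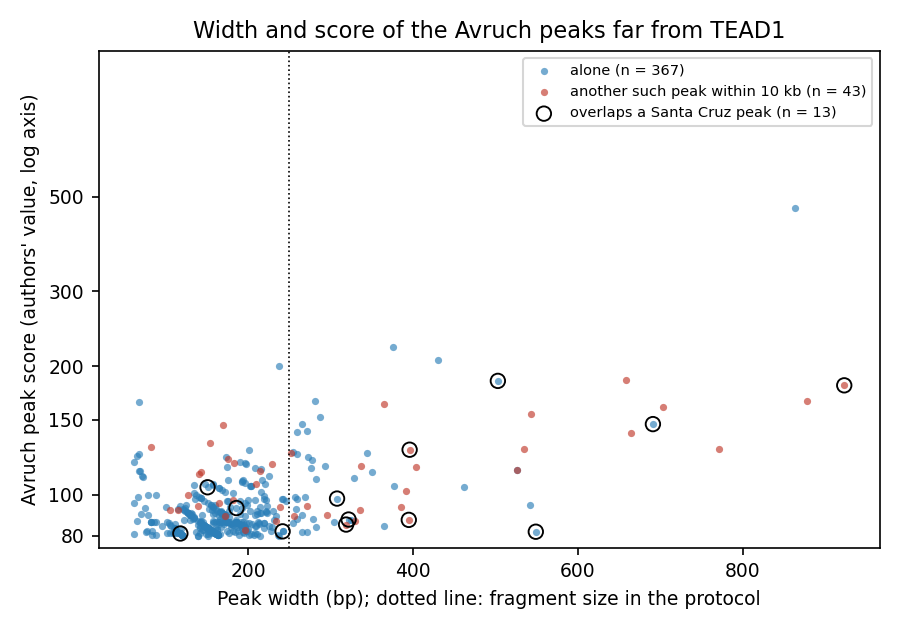
Score (log axis, authors' value) against width (bp) of the 410 distant YAP peaks. Blue points stand alone, red points have another distant YAP peak within 10 kb, black rings mark the 13 that overlap a Santa Cruz peak, and the dotted line is the sheared fragment size of 250 bp. Peaks of 400 bp or wider reach high scores, and a small set narrower than 100 bp also reaches scores above 100.

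The distant YAP peaks were found on all 22 autosomes, from 51 on chromosome 1 to 5 each on chromosomes 15 and 19. Their chromosomes were compared with those of the weaker distant Avruch peaks, which meet the same distance rule. Chromosome 22 held 22 of the 410 (5.37%, 3.57 to 7.99) and 1.55% of the weaker peaks, a difference of 3.82 percentage points (Newcombe interval 1.97 to 6.46). With 1 peak counted per run of neighbours, 12 of 381 remained there (3.15%), and the difference was 1.68 points (0.267 to 3.98). Runs join only peaks within 10 kb, so the 5 groups from 18685571 to 21680580 still count as 5 of these 12. A lone peak between them (20326172 to 20326442) counts as well. The remaining difference is therefore not free of this neighbourhood. Chromosome 18 held 14 (3.41% against 1.65%, difference 1.76 points, 0.316 to 4.02) and chromosome 14 held 17 (4.15% against 2.44%, 1.70 points, 0.0705 to 4.14). Chromosome 15 held 5 (1.22% against 3.86%, -2.64 points, -3.60 to -0.940) and chromosome 20 held 6 (1.46% against 3.44%, -1.98 points, -2.99 to -0.202). With 1 peak per run, the interval for chromosome 20 reached 0. For the other 17 chromosomes the intervals included 0, and none was adjusted for the 22 comparisons.

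Chromosome 19 stood at one end of the distance rule. It held 5 distant YAP peaks (1.22%) and 25 near ones (5.04% of that class). Of its 323 Avruch peaks under the conditions on place and width, 33.4% were more than 10 kb from TEAD1, the lowest share of any autosome, and it carried 2597 TEAD1 peaks. On chromosome 18, with 824 TEAD1 peaks, 63.1% of 122 were distant, the highest share.

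**Figure D5:**
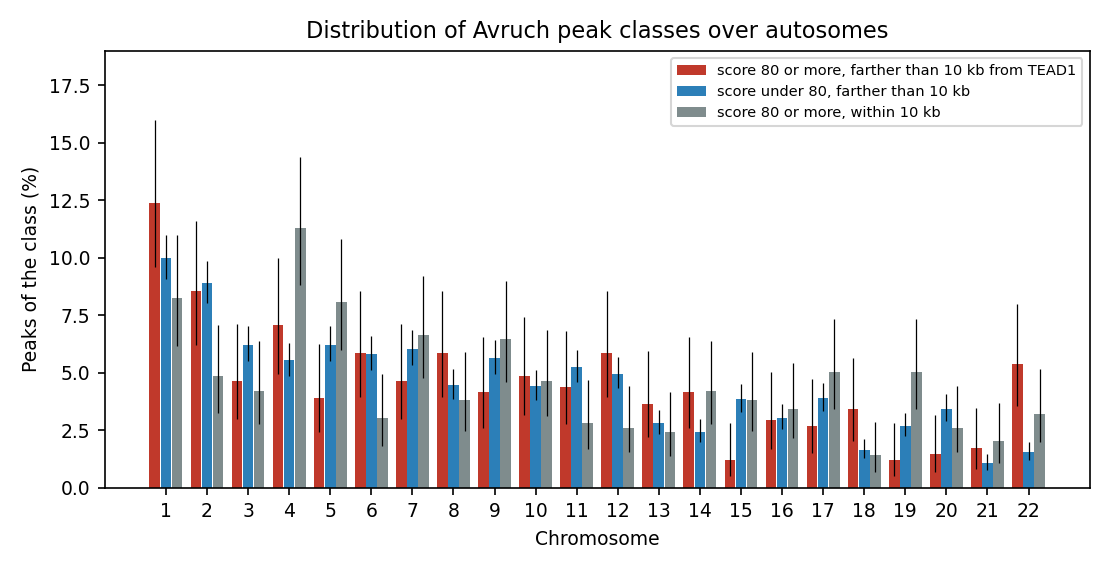
Share of each class of Avruch peaks (%) on each autosome, with Wilson 95% intervals: distant peaks with a score of at least 80 (red), distant peaks with scores under 80 (blue) and peaks of at least 80 within 10 kb of TEAD1 (grey). Chromosome 22 holds 5.37% of the strong distant peaks and 1.55% of the weak ones, and chromosome 19 holds 1.22% of the strong distant and 5.04% of the near peaks.

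Peaks beside long peak-free stretches made up a larger share of the distant class when every peak was counted. Within 2 Mb of one of 18 such stretches lay 26 of the 410 (6.34%, 4.36 to 9.13), against 4.09% of the Avruch peaks under the conditions on place and width. The share was 2.62% of the near peaks (difference 3.72 points, 1.04 to 6.71) and 4.04% of the weaker distant ones (2.30 points, 0.208 to 5.15). A stretch by definition lacks TEAD1 peaks too, so the contrast with near peaks is not independent of the distance rule and is given as a description. The weaker distant peaks meet the same distance rule. Chromosome 1 contributed 6, of which 5 were the group at 121414916 to 121427427. Chromosome 21 contributed 5, and 12 of the 18 stretches had at least 1. Neighbours in a group count singly in these shares and intervals, and no share with 1 peak per run was computed. Of the 704 autosomal Avruch peaks under 1000 bp that lay this close to a stretch, 377 (53.6%) were within 50 kb of a wide peak and were left out by the rule, so the counts describe the rest.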

How the data were processed

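ChIP-seq peak lists of 3 libraries were analysed. Reads had been aligned with Bowtie2 to hg19, per the submitters' processing notes, and the peak names in the files carry the name MACS. The caller's version, its settings, its control and the handling of duplicates were not stated in the labels or files. The score of each peak is the authors' deposited value, with no stated unit. Positions are printed 1-based. Peaks were called per library, and read depth is unknown, so no interval covers it.

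Distances are between centres, except the gap to wide peaks, which is between edges. Shares have Wilson 95% intervals (statsmodels 0.14.6), and differences have Newcombe 95% intervals built from them. Distances, overlaps and groups were checked on simulated peaks. The Newcombe interval was checked on simulated independent counts, not on clustered peaks. The regions and settings were chosen with earlier results of these data known. Regions were named by fixed rules: the 15 highest scores, all peaks shared with Santa Cruz, the 5 windows with the most peaks, and the edges of the rule. Groups, peaks under 100 bp and peak-free stretches were described after the values were seen. Genes, gene starts, motifs, base composition and repeated sequence were not analysed here, because no hg19 genome or annotation was used.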

Additional observations from a re-analysis of the deposited data

How the results depend on the processing

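The number of distant YAP peaks was 89 with a score of 100 or more required, 2716 with 60 or more and 152 more than 50 kb from TEAD1, and lay between 349 and 410 under 7 further settings. The share overlapping a Santa Cruz peak was 5.62% at scores of 100 or more, 5.92% beyond 50 kb, 1.64% without dense windows, 1.82% without the flanks of peak-free stretches and 1.43% without both. Its difference from near peaks was -4.09 percentage points in the main setting. The interval included 0 at scores of 100 or more (-6.96 points) and beyond 50 kb, where the difference itself was also smaller (-1.34). Under 6 other settings the difference kept its direction and side. The share with another distant peak within 10 kb was 24.7% at scores of 100 or more, 3.83% without dense windows and 3.44% without these and the flanks, and 17.6% had any Avruch peak that close. Its difference from near peaks was -0.446, -1.33 and -1.81 points under these 3 settings, with intervals that included 0. Dense windows are chosen by their number of Avruch peaks, so leaving them out takes out grouped peaks of both classes. The causes were not tested. The flanks were left out, alone or with dense windows, after the data had been seen. No paired analysis was possible because each antibody has 1 library. Results on gene starts, motifs and repeated sequence were not run.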
